A study of Homo sapiens with 8 samples.

Results

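Sphingosine-1-phosphate is a signalling lipid made inside cells and sensed at their surface. The 9 genes examined here make, export, destroy or sense it, namely the kinases SPHK1 and SPHK2, the exporter SPNS2, the lyase SGPL1, the phosphatases PLPP1 and PLPP3, and the receptors S1PR1, S1PR2 and S1PR3. They were chosen by gene symbol, and all 9 of 9 were found among the 34415 genes of the table. RNA was sequenced from 4 estradiol libraries, of cells given estradiol in medium with palmitic acid, and from 4 control libraries, of cells in medium with palmitic acid and without estradiol. All 8 came from TeloHAEC, a wild-type line of human aortic endothelial cells immortalised with telomerase, so a single line stands for the endothelium here. Palmitic acid, a saturated fatty acid, was common to both groups by the sample titles, from which the groups were read. The treatment field disagrees: it names palmitic acid for the estradiol samples and only a control for the others, so read alone it would set palmitic acid against control. No library labelled in its title as lacking palmitic acid was analysed here. The sources used here do not give doses, exposure times or the vehicle. Nor do they state if replicates came from separate cultures, so each p-value refers to the variation among these libraries, and that may be technical variation.

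Palmitic acid is a building block of the sphingoid backbone, which cells turn into ceramide, then sphingosine, and then, through the sphingosine kinases, into sphingosine-1-phosphate. Endothelial cells release the lipid through SPNS2, and circulating sphingosine-1-phosphate acting on S1PR1 is known to tighten their junctions and keep vessels from leaking. S1PR2 and S1PR3 couple to a wider set of G proteins, and S1PR2 is known to oppose several actions of S1PR1. In breast cancer cells estradiol is known to activate SPHK1, which gives the comparison its question for this pathway. RNA levels do not measure enzyme activity, and in a bulk sample fewer cells of a type and less RNA per cell cannot be told apart.

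The cells transcribed S1PR1 far above every other gene of the set, SPHK1 far above SPHK2, and S1PR2 and SPNS2 only at low levels, and this held in both groups. Estradiol changed none of the 9 genes beyond the spread between libraries. Of the 7 genes that reached a mean of 1 FPKM (fragments per kilobase of transcript, scaled to the fragments of the library), 0 were higher and 0 lower by limma at a Benjamini-Hochberg adjusted p under 0.05, and 0 at an unadjusted p under 0.05. Over all 10720 genes tested, 0% passed after adjustment and 0.243%, or 26 genes, before it, and limma-voom on recovered reads also called 0 genes, with 22 before adjustment. If no gene differed, a share near 0.05 would be expected before adjustment, so the test with all 8 libraries was cautious. Without control replicate 3 and estradiol replicate 4, described below, 416 genes passed before adjustment and 0 after it. In 0 of the 9 genes did the estradiol and control libraries fail to overlap, against 0.532% of the genes tested (0.308% higher and 0.224% lower with estradiol). The adjusted p was 0.999989 by limma for each of the 7 tested genes. A p that misses the threshold does not show equal levels, so the interval of each difference is given with it.

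The promoters of the most and the least abundant kinase and receptor are printed here, because estrogen receptors act on DNA and the contrast in level lies within these gene pairs. The sequences come from RefSeq (build GRCh38.p14), which held 11 windows of 300 bases for 7 of the 9 genes, and PLPP1 and SPNS2 were not matched. Each window runs from 250 bases before a transcription start to 50 bases after it and is read 5′ to 3′ on the strand of the gene. They lie at chr1:101236769-101237068 (plus strand) for S1PR1, chr19:10231282-10231581 (minus strand) for S1PR2, chr17:76382954-76383253 (plus strand) for the upstream-most of 3 SPHK1 starts, and chr19:48619256-48619555 (plus strand) for the upstream-most of 2 SPHK2 starts. Capitals mark the KLF-type box CACCC, bound by factors such as KLF2, and the AP-1 site TGANTCA, each on either strand.
S1PR1: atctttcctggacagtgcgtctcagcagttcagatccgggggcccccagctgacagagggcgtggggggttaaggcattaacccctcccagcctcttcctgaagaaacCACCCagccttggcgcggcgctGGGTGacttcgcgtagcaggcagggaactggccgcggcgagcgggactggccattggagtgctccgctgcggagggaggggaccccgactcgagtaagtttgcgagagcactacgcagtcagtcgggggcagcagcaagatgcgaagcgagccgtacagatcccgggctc
S1PR2: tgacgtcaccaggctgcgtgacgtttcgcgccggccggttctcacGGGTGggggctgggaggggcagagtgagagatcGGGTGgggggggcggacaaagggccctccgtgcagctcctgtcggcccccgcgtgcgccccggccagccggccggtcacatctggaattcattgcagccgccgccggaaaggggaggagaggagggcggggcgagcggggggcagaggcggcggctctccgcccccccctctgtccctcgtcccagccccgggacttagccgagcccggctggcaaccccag
SPHK1: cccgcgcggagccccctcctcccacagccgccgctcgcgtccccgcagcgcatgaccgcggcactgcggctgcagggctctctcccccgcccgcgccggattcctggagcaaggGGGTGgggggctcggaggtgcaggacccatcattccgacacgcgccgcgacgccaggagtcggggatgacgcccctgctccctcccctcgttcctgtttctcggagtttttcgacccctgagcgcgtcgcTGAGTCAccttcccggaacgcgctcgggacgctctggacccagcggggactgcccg
SPHK2: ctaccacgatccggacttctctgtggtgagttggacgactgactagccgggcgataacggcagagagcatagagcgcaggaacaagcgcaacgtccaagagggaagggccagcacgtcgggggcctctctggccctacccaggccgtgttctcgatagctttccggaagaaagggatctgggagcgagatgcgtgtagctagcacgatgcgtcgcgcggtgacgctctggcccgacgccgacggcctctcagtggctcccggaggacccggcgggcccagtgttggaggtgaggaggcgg
The estrogen response element, GGTCA and TGACC with any 3 bases between them, was in 0 of the 11 windows and in 0.0570% of all 35116 promoter windows. Its half-site AGGTCA, which can overlap it, was searched on both strands as well and was in 0 of the 11 and in 13.8% of all. CACCC was in 8 of the 11 windows, 2 times in that of S1PR1 and 2 times in that of S1PR2, against 59.9% of all windows. TGANTCA was in 2 of the 11, both of SPHK1, against 7.71% of all. The printed SPHK2 window held none of these sites, while the SPHK2 window that is not printed held CACCC 5 times. No AP-1 match overlapped a KLF-type match in the printed windows. The GC box GGGCGG, not capitalised, was in 6 of the 11 and in 44.95% of all. A match is a description of letters, not a site in use, and a missing match says only that the letters are not in the window.

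The libraries held between 33421051 and 39899258 reads assigned to genes, recovered from the steps of the FPKM values. Of 12 endothelial markers 10 reached a mean of 1 FPKM, with a summed level of 489 to 639 FPKM in estradiol and 487 to 674 FPKM in control libraries, while VWF and EMCN stood at 0.296 and 0.280 FPKM over all libraries. Of the markers of fibroblasts, leukocytes, blood cells and epithelium, 0 of 5, 0 of 7, 0 of 6 and 0 of 5 reached that level, and LUM, CD3E, HBB and KRT14 were at 0. Of 7 smooth muscle markers ACTA2, TAGLN and SMTN reached it, MYH11 and CNN1 stood at 0.0323 and 0.0134 FPKM, and DES was at 0. The largest difference among libraries did not follow the groups: a first principal component with 68.7% of the variance set estradiol replicate 4 and control replicate 3 apart from the other 6 libraries. Their deviations ran with the GC content of the transcripts (rank correlation across genes, which are not independent replicates, of -0.848 and -0.869). For the remaining 6 libraries this correlation lay between -0.342 and 0.654. No batch is named in the labels, and differences without this pair are given below for the 9 genes and for the pathway genes on which it bears most.

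**Figure D1:**
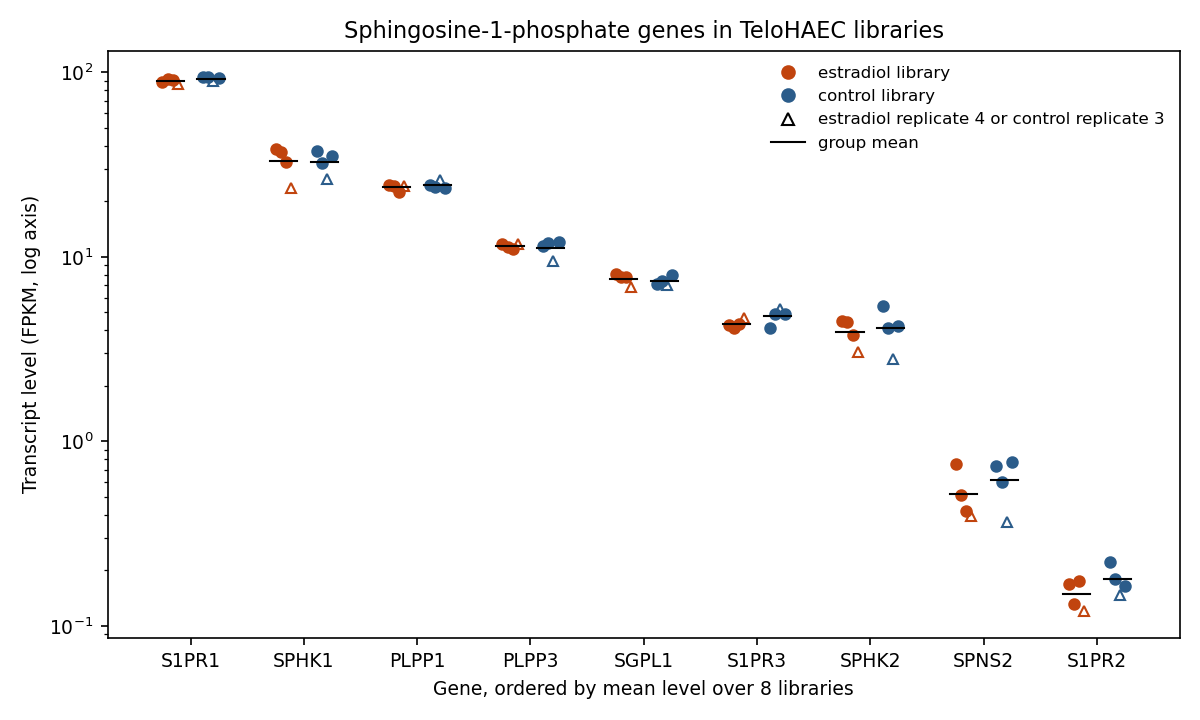
Transcript levels in FPKM, on a log axis, of the 9 genes, ordered by their mean over 8 libraries, with estradiol libraries left of control libraries, a bar at each group mean, and triangles for estradiol replicate 4 and control replicate 3. The groups overlap for every gene, and the triangles mark the lowest library of each group for SPHK1, SPHK2, SPNS2, SGPL1, S1PR1 and S1PR2.

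SPHK1, the inducible and mainly cytosolic sphingosine kinase, was the more abundant of the kinases. It measured 38.3, 37.0, 32.8 and 23.7 FPKM in estradiol replicates 1 to 4, against 37.6, 32.2, 26.3 and 35.1 FPKM in control replicates 1 to 4. The groups overlapped, and the lowest value of each came from the library that stood apart. The mean was 33.0 ± 6.59 FPKM with estradiol and 32.8 ± 4.87 FPKM in control (SD, n = 4 each), from 2504 to 4086 reads per library. The difference on the log2(FPKM + 1) scale was -0.0031, with a 95% interval of -0.37 to 0.36. That interval holds changes from 0.775-fold to 1.29-fold of FPKM + 1. Its sign was not stable: the difference was 0.04 without the pair of libraries that stood apart. Leaving out control replicate 1 gave 0.07 and leaving out estradiol replicate 4 gave 0.14.

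SPHK2, the isoform found also in the nucleus and mitochondria, ran far lower, with an FPKM ratio of SPHK1 to SPHK2 of 8.34 ± 0.408 with estradiol and 8.12 ± 1.03 in control (SD, n = 4 each). It measured 4.47, 4.41, 3.79 and 3.07 FPKM in estradiol libraries, against 5.40, 4.13, 2.79 and 4.23 FPKM in control libraries, in the order of their replicates. As for SPHK1, the lowest library of each group was the one that stood apart. The mean was 3.93 ± 0.655 FPKM with estradiol and 4.14 ± 1.07 FPKM in control (SD, n = 4 each), a difference of -0.04 on the log2(FPKM + 1) scale (95% interval -0.40 to 0.32). Leaving out control replicate 1 gave 0.07, estradiol replicate 4 gave 0.05 and control replicate 3 gave -0.18. SPHK1 took 89.3 ± 0.487% of the summed FPKM of both kinases with estradiol and 88.9 ± 1.24% in control (SD, n = 4 each), so the kinase ratio moved less between libraries than either level.

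SPNS2, the transporter that carries sphingosine-1-phosphate out of endothelial cells, was under 1 FPKM in all 8 libraries. It measured 0.755, 0.511, 0.420 and 0.396 FPKM in estradiol libraries, against 0.731, 0.602, 0.364 and 0.771 FPKM in control libraries. Both groups spanned about the same range. The means were 0.520 ± 0.164 FPKM with estradiol and 0.617 ± 0.183 FPKM in control (SD, n = 4 each; exact two-sided permutation p = 0.457, unadjusted, over 70 relabellings whose smallest p is 0.0286). These values rest on 48 to 108 reads per library. Counting error alone gives the lowest library, control replicate 3, a 95% Poisson interval of 0.269 to 0.483 FPKM, and the highest, control replicate 4, one of 0.632 to 0.930 FPKM. The difference of -0.0966 FPKM became -0.18 when control replicate 3 was left out, and -0.0454 when control replicate 4 was. Without the pair of libraries that stood apart it was -0.140 FPKM (exact two-sided permutation p = 0.30, unadjusted, 20 relabellings). With so few relabellings that test cannot reach a p under 0.05, so its p decides nothing.

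SGPL1, the lyase of the endoplasmic reticulum that cleaves sphingosine-1-phosphate irreversibly, stood between the kinases in level. It measured 8.04, 7.73, 7.81 and 6.88 FPKM in estradiol libraries, against 7.13, 7.41, 6.995 and 7.95 FPKM in control libraries. The mean was 7.62 ± 0.504 FPKM with estradiol and 7.37 ± 0.426 FPKM in control (SD, n = 4 each), a log2(FPKM + 1) difference of 0.04 (95% interval -0.14 to 0.22). Estradiol replicate 4 was the lowest of all 8 libraries, and the difference was 0.08 without it. The making enzyme outnumbered the cleaving one at the level of RNA: the FPKM ratio of SPHK1 to SGPL1 was 4.30 ± 0.630 with estradiol and 4.45 ± 0.627 in control (SD, n = 4 each).

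PLPP1 and PLPP3 encode phosphatases of the cell surface that remove the phosphate from sphingosine-1-phosphate and related lipids such as lysophosphatidic acid. PLPP1 measured 24.6, 24.1, 22.5 and 24.2 FPKM in estradiol libraries, against 24.5, 24.0, 26.1 and 23.6 FPKM in control libraries. Its means were 23.9 ± 0.953 FPKM with estradiol and 24.5 ± 1.10 FPKM in control (SD, n = 4 each), and the log2(FPKM + 1) difference was -0.04 (95% interval -0.21 to 0.14). PLPP3, which is known to restrain inflammation in endothelium and lies at a locus tied to coronary artery disease, measured 11.8, 11.3, 10.98 and 11.7 FPKM in estradiol libraries, against 11.5, 11.8, 9.44 and 11.996 FPKM in control libraries. Control replicate 3 was the only library under 10 FPKM. The means of PLPP3 were 11.4 ± 0.380 FPKM with estradiol and 11.2 ± 1.18 FPKM in control (SD, n = 4 each). Its log2(FPKM + 1) difference of 0.03 (95% interval -0.17 to 0.24) turned to -0.04 without control replicate 3 and -0.05 without that library and estradiol replicate 4. PLPP1 supplied 67.6 ± 0.428% of the summed FPKM of both phosphatases with estradiol and 68.7 ± 3.25% in control (SD, n = 4 each), with 73.4% in control replicate 3.

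S1PR1, the receptor that works through Gi proteins to activate RAC1 and hold junctions together, was the most abundant gene of the set. It measured 88.6, 92.4, 90.8 and 86.1 FPKM in estradiol libraries, against 93.7, 93.7, 89.3 and 92.5 FPKM in control libraries. Of the 4 control libraries 3 lay above every estradiol library, 1 of them by under 0.1 FPKM, and control replicate 3 lay inside the estradiol range. The mean was 89.5 ± 2.73 FPKM with estradiol and 92.3 ± 2.10 FPKM in control (SD, n = 4 each), from 8870 to 10691 reads per library. The log2(FPKM + 1) difference was -0.04 (95% interval -0.21 to 0.12), which holds changes from 0.865-fold to 1.09-fold. It was negative in each of the 19 alternative fits, from -0.06 to -0.03, and the adjusted p passed in none of them. Only 5.49% of the genes tested had a higher mean level than S1PR1.

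S1PR3, a receptor that also couples to Gq and to G proteins acting on RHOA, stood far below S1PR1. It measured 4.29, 4.10, 4.32 and 4.67 FPKM in estradiol libraries, against 4.13, 4.91, 5.21 and 4.91 FPKM in control libraries. In control, 3 of 4 libraries lay above every estradiol library, and control replicate 1 lay near the lowest. The mean was 4.34 ± 0.235 FPKM with estradiol and 4.79 ± 0.464 FPKM in control (SD, n = 4 each). The log2(FPKM + 1) difference of -0.11 (95% interval -0.30 to 0.08) was the largest in size among the 7 tested genes. Leaving out control replicate 1 gave -0.17 and control replicate 3 gave -0.08, and it did not pass in any alternative.

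S1PR2, which signals through G proteins that activate RHOA, was the lowest gene of the set, though it had reads in all 8 libraries. It measured 0.168, 0.131, 0.174 and 0.120 FPKM in estradiol libraries, against 0.223, 0.180, 0.146 and 0.165 FPKM in control libraries, from 16 to 32 reads. The lowest library, estradiol replicate 4, had a 95% Poisson interval of 0.0701 to 0.193 FPKM and the highest, control replicate 1, one of 0.153 to 0.315 FPKM, so counting error alone spans much of the range. The means were 0.148 ± 0.0267 FPKM with estradiol and 0.179 ± 0.0328 FPKM in control (SD, n = 4 each; exact two-sided permutation p = 0.20, unadjusted). No difference in S1PR2 was detected, and without the pair of libraries that stood apart the difference was -0.0315 FPKM, against -0.0301 FPKM with all 8. Among the 3 receptors S1PR1 made up 95.2 ± 0.365% of the summed FPKM with estradiol and 94.9 ± 0.506% in control, S1PR3 4.63 ± 0.371% and 4.93 ± 0.537%, and S1PR2 0.158 ± 0.0275% and 0.183 ± 0.0317%, with estradiol given ahead of control in each pair (SD, n = 4 each).

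**Figure D2:**
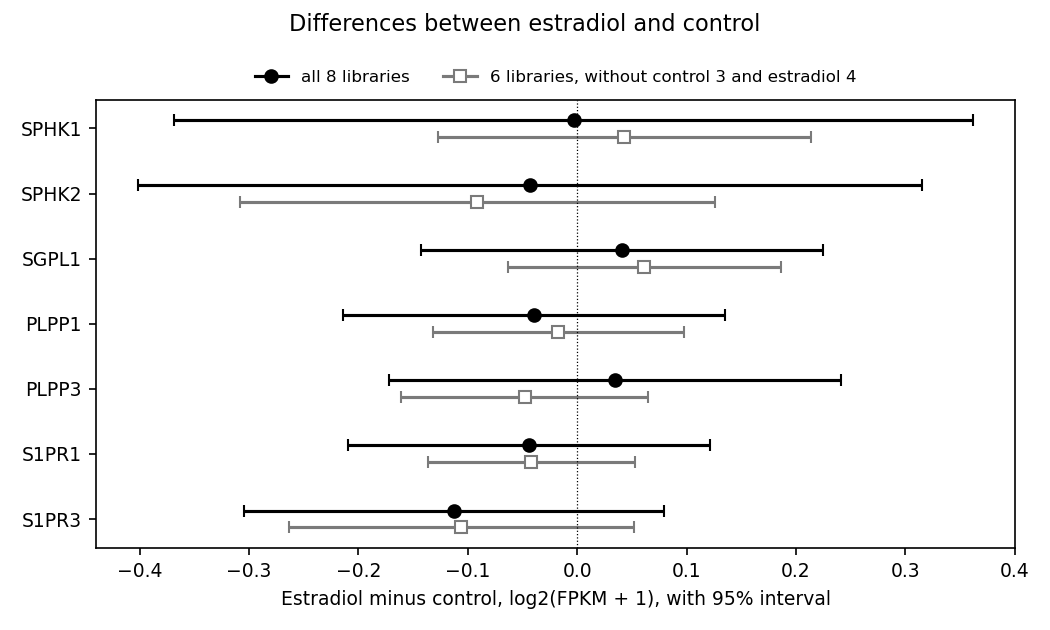
Difference between estradiol and control on the log2(FPKM + 1) scale with its 95% interval for the 7 genes tested, from all 8 libraries (filled circles) and from the 6 that remain when the pair that stood apart is dropped (open squares). Every interval includes 0, and those of SPHK1 and SPHK2 from 8 libraries are the widest.

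The order of mean levels over 8 libraries was S1PR1 at 90.9 ± 2.71, SPHK1 at 32.9 ± 5.36, PLPP1 at 24.2 ± 1.02, PLPP3 at 11.3 ± 0.825, SGPL1 at 7.49 ± 0.451, S1PR3 at 4.57 ± 0.415, SPHK2 at 4.04 ± 0.827, SPNS2 at 0.569 ± 0.169 and S1PR2 at 0.164 ± 0.0320 FPKM (SD, n = 8). Of the 8 pairs of neighbours in this order, 6 had ranges that did not overlap. SPHK1 and PLPP1 overlapped, with SPHK1 higher in 7 of 8 libraries, and so did S1PR3 and SPHK2, with S1PR3 higher in 5 of 8. The estimate of one gene against another also depends on the annotation. By GENCODE release 29, PLPP1 shares 23.9% of its annotated exon bases with MTREX on the other strand, and SPHK2 shares 661 of its 6009 with DBP and 246 with the abundant ribosomal protein gene RPL18, also on the other strand. SPNS2 shares 139 bases with MYBBP1A on the other strand, and S1PR2 shares 83 bases with DNMT1 on the same strand, where strand cannot separate them. PLPP3 also shares 576 bases with AC119674.2 on the same strand, and PLPP1 shares 92 with RNF138P1. AC119674.2 and RNF138P1 have no level here. MYBBP1A and DNMT1 averaged 9.51 and 7.18 FPKM over 8 libraries, far above the 0.569 FPKM of SPNS2 and the 0.164 FPKM of S1PR2. The few reads of both low genes are therefore uncertain. RPL18 averaged 556 FPKM against 4.04 FPKM for SPHK2, so the level of SPHK2 is uncertain too. MTREX averaged 20.3 FPKM, against 24.2 FPKM for PLPP1, and DBP only 0.0519 FPKM. No source used here says whether counting used the strand, so reads in those stretches could not be told apart or may have been left out.

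The kinases and SPNS2 were lower in the pair of libraries that stood apart, and S1PR1 differed little there. The coefficient of variation over 8 libraries was 16.3% for SPHK1, 20.5% for SPHK2, 29.7% for SPNS2 and 19.6% for S1PR2, against 2.98% for S1PR1, 4.23% for PLPP1, 6.02% for SGPL1, 7.29% for PLPP3 and 9.09% for S1PR3. Over all genes tested its median was 14.2%, and 0.765% of them had a lower value than S1PR1. SPHK1 averaged 25.0 FPKM in the pair and 35.5 FPKM in the other 6 libraries, SPHK2 2.93 and 4.40 FPKM, and SPNS2 0.380 and 0.632 FPKM. S1PR1 averaged 87.7 FPKM in the pair and 92.0 FPKM in the other 6, and S1PR3 4.94 and 4.44 FPKM. S1PR2, on its few reads, averaged 0.133 FPKM in the pair and 0.174 FPKM in the other 6. SGPL1 averaged 6.94 FPKM in the pair and 7.68 FPKM in the other 6, PLPP3 10.6 and 11.6 FPKM, and PLPP1 25.1 and 23.9 FPKM. The transcripts of SPHK1, SPHK2 and SPNS2 hold 65.5%, 63.2% and 64.4% G and C, that of S1PR2 57.0%, and those of the other 5 genes 47.2% to 50.3%, against a median of 47.9% over the genes tested.

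**Figure D3:**
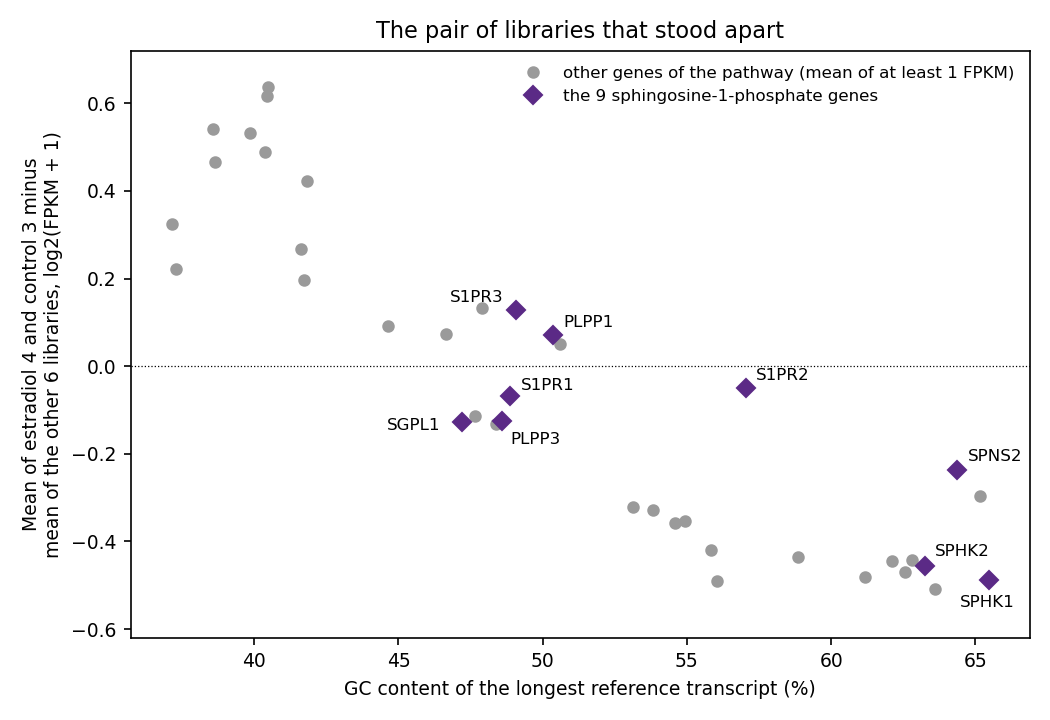
Mean of estradiol replicate 4 and control replicate 3 minus the mean of the other 6 libraries, on the log2(FPKM + 1) scale, against the GC content of the longest reference transcript, for the 9 genes (diamonds) and the 30 other genes of the pathway with a mean of at least 1 FPKM (circles). SPHK1 and SPHK2 lie at -0.49 and -0.46 among the GC-rich genes, and S1PR1 at -0.07.

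Once each library's GC trend was taken out, the kinases varied less. SPHK1 then measured 28.8 to 34.7 FPKM in estradiol libraries and 31.3 to 33.1 FPKM in control libraries, and its coefficient of variation was 5.996%. SPHK2 measured 3.86 to 4.02 FPKM in estradiol libraries and 3.70 to 4.50 FPKM in control libraries, with a coefficient of 5.94%. For S1PR1 the coefficient was 2.95%, for SGPL1 5.42% and for PLPP3 6.82%. It was higher than before for PLPP1, at 8.703%, and for S1PR3, at 11.1%. The differences between the groups were 0.03 for SPHK1 (95% interval -0.10 to 0.17) and -0.01 for SPHK2 (95% interval -0.13 to 0.11), with adjusted p = 0.999977 by limma. The part of RNA quality or library preparation in the pair was not tested.

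**Figure D4:**
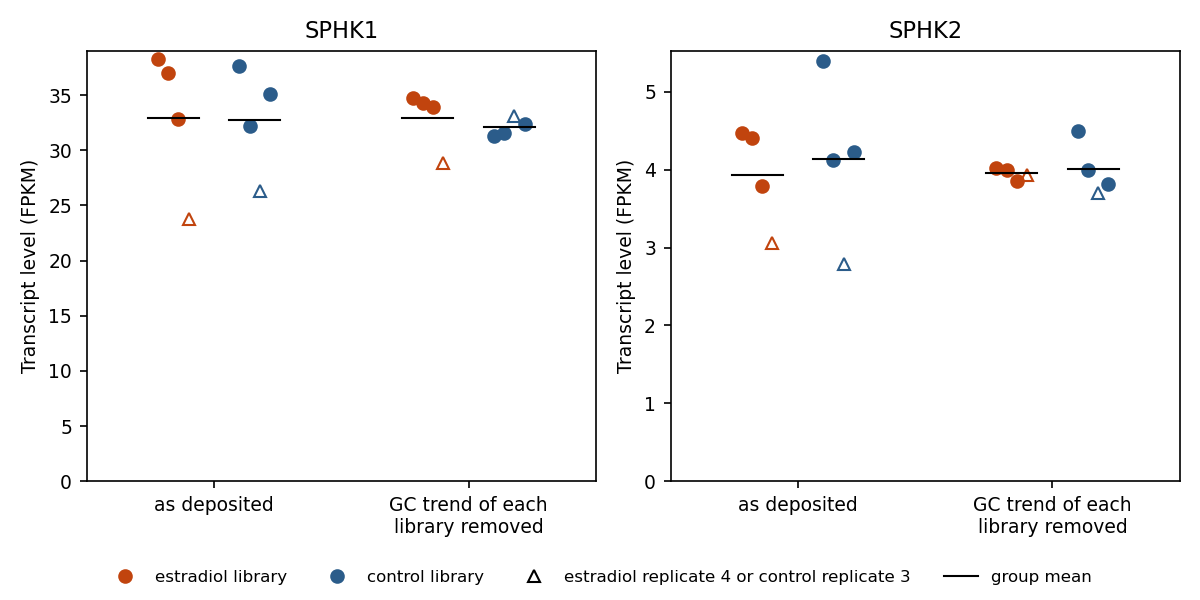
SPHK1 (left) and SPHK2 (right) in FPKM, as deposited and after each library's GC trend was taken out, estradiol libraries left of control libraries, with bars at the group means and triangles for estradiol replicate 4 and control replicate 3. The triangles sit below the other libraries as deposited, and after removal the range over 8 libraries is 28.8 to 34.7 FPKM for SPHK1 and 3.70 to 4.50 FPKM for SPHK2.

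Within the pair and within the other 6 libraries the comparison could be made apart. Estradiol minus control within the pair, 1 library each and so with no test, was -0.14 for SPHK1, 0.10 for SPHK2, -0.02 for SGPL1, -0.11 for PLPP1, 0.28 for PLPP3, -0.05 for S1PR1 and -0.13 for S1PR3 on the log2(FPKM + 1) scale. In the other 6 it was 0.04, -0.09, 0.06, -0.02, -0.05, -0.04 and -0.11 in the same order of genes, and the adjusted p was at least 0.991554 by limma for each. S1PR1, S1PR3 and PLPP1 kept a negative sign in both, and the others changed sign.

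Around the 9 genes, 39 further genes of the pathway were measured, and 30 of them reached a mean of 1 FPKM. By limma 0 of the 30 were higher and 0 lower with estradiol after adjustment, and 0 passed an unadjusted p under 0.05. Over all genes tested these shares were 0% and 0.243%, so few or none of 30 genes would pass in any case. Their median log2(FPKM + 1) difference was -0.02, with 8 positive and 22 negative values. The median over all genes tested was -0.000471, with 5308 positive and 5412 negative values. For the 7 tested genes of the set the median was -0.04, with 2 positive and 5 negative. The comparisons share the same libraries, so the signs are not independent, and their lean was not tested. Of the 30 genes, 20 act in signalling and 10 in metabolism.

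**Figure D5:**
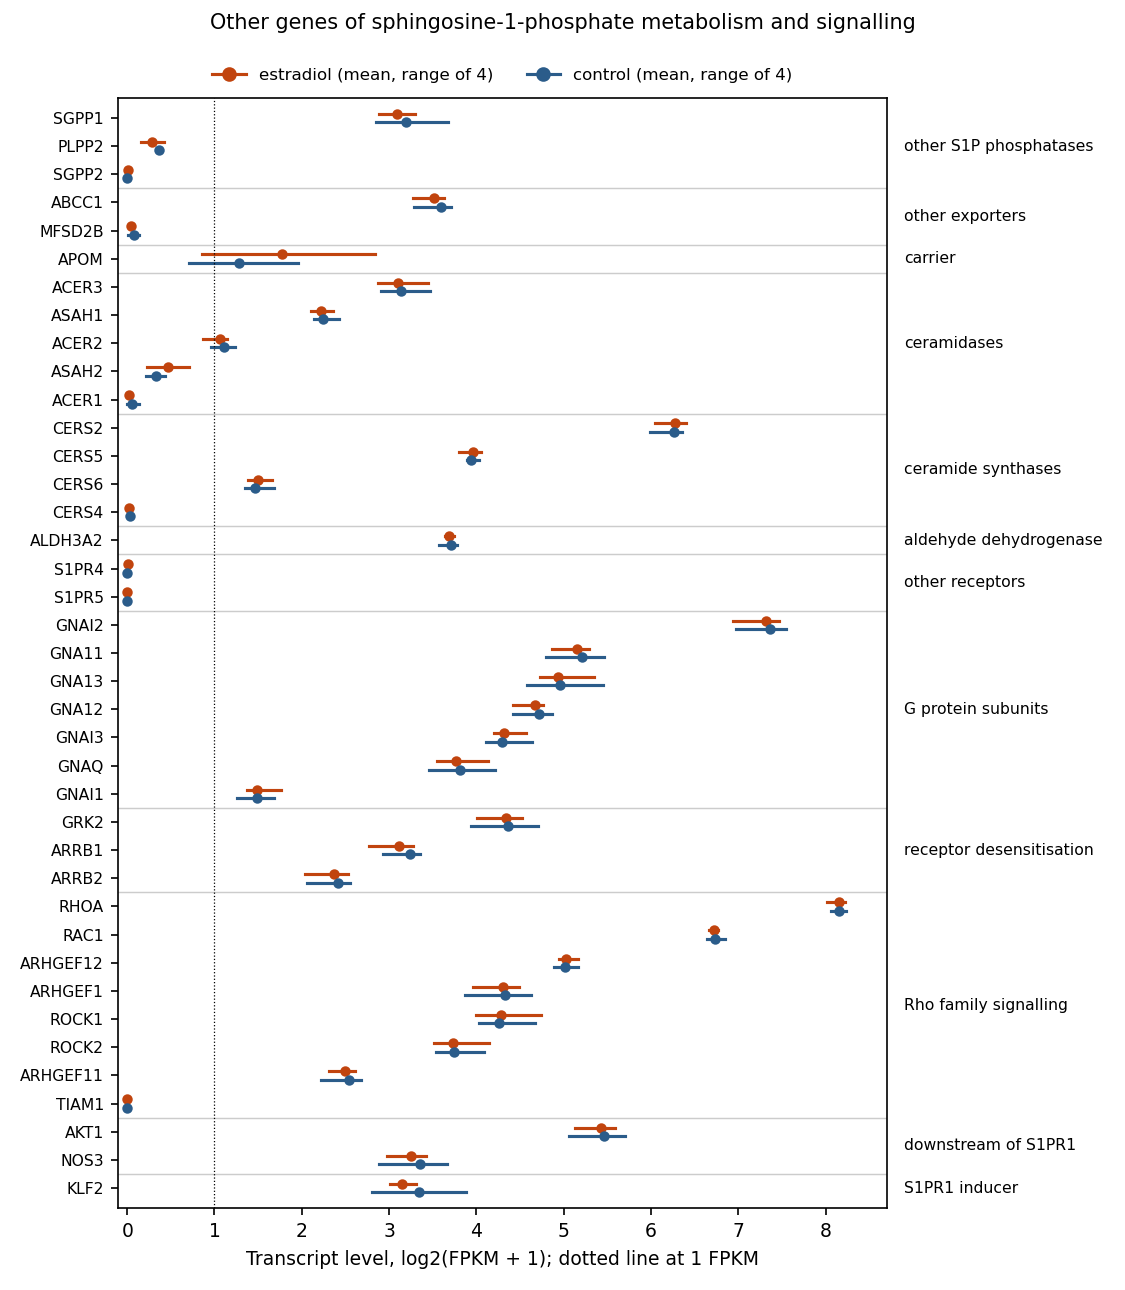
Levels on the log2(FPKM + 1) scale of 39 other genes of sphingosine-1-phosphate metabolism and signalling by role, with the group mean as a point and the range of 4 libraries as a line, estradiol above control. The ranges overlap for every gene, and S1PR4, S1PR5, SGPP2 and TIAM1 sit at or near 0.

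The remaining receptors were all but absent. S1PR5, known from natural killer cells and oligodendrocytes, had 0 reads in all 8 libraries, and S1PR4, known from lymphoid cells, had 1 read in estradiol replicate 3 and 0 in the others. A count of 0 allows up to 3 reads, or 0.0752 to 0.0897 RPM (reads scaled to the library's total), for counting error only. The genes that carry the signal onward spanned a wide range, from TIAM1, an activator of RAC1 with 0 or 1 read per library, to RHOA. RHOA, the small GTPase downstream of S1PR2 and S1PR3, was the highest of the list at 284 ± 18.8 FPKM with estradiol and 283 ± 14.6 FPKM in control. GNAI2, a Gi subunit that S1PR1 uses, measured 158 ± 24.7 FPKM with estradiol and 164 ± 27.3 FPKM in control, and RAC1, which reshapes cortical actin, 105 ± 3.33 FPKM and 105 ± 6.52 FPKM in those groups (SD, n = 4 each). AKT1, a kinase downstream of S1PR1, stood at 41.9 ± 5.64 FPKM with estradiol and 43.0 ± 7.77 FPKM in control, and its target NOS3, the endothelial nitric oxide synthase, at 8.55 ± 1.32 FPKM and 9.19 ± 2.15 FPKM in those groups (SD, n = 4 each).

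Genes with the smallest unadjusted p on the lower side were ARRB1, KLF2 and ABCC1, and the adjusted p was 0.999989 by limma for every tested gene of the list. ARRB1, an arrestin that helps to withdraw activated receptors, measured 7.68 ± 1.26 FPKM with estradiol and 8.43 ± 1.23 FPKM in control (SD, n = 4 each; log2(FPKM + 1) difference -0.12). KLF2, a flow-responsive factor that induces S1PR1, measured 8.94, 7.08, 7.39 and 8.06 FPKM in estradiol libraries, against 13.8, 8.29, 5.99 and 8.38 FPKM in control libraries (log2(FPKM + 1) difference -0.14). Control replicate 1 was the highest library for KLF2 and control replicate 3 the lowest. Without the pair that stood apart the KLF2 difference was -0.31 (95% interval -0.70 to 0.08), and within the pair it was 0.37. ABCC1, an ATP-driven transporter that can also export sphingosine-1-phosphate, measured 10.4 ± 1.18 FPKM with estradiol and 11.04 ± 1.57 FPKM in control (SD, n = 4 each; log2(FPKM + 1) difference -0.08). It was thus the more abundant exporter, since SPNS2 stayed under 1 FPKM and MFSD2B, the exporter of red cells and platelets, measured 0.0281 ± 0.00230 FPKM with estradiol and 0.0515 ± 0.0376 FPKM in control (SD, n = 4 each), from 1 to 11 reads.

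On the higher side the smallest unadjusted p belonged to APOM, CERS6 and CERS5. APOM, the carrier that holds sphingosine-1-phosphate on HDL particles, measured 1.22, 6.14, 1.44 and 0.816 FPKM in estradiol libraries, against 0.639, 1.02, 2.88 and 1.20 FPKM in control libraries (log2(FPKM + 1) difference 0.33). Estradiol replicate 2 alone was far above the rest, and without it the other 3 estradiol libraries lay within the control range. The APOM difference was 0.80 without the pair that stood apart (95% interval -0.07 to 1.68) and -1.10 within the pair. The ceramide synthases use sphingosine in competition with the kinases. Among them CERS6, which prefers palmitoyl groups, stood at 1.82 ± 0.247 FPKM with estradiol and 1.75 ± 0.317 FPKM in control, and CERS5 at 14.6 ± 1.26 FPKM and 14.3 ± 0.747 FPKM in those groups. CERS2, which makes very long-chain ceramides, was the most abundant of them at 76.3 ± 7.96 FPKM with estradiol and 76.0 ± 9.11 FPKM in control (SD, n = 4 each).

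S1PR1-DT, a transcript read away from the S1PR1 start, measured 1.98 ± 0.560 FPKM with estradiol and 2.16 ± 0.120 FPKM in control (SD, n = 4 each), with overlapping groups. For each of the 9 genes the tested gene whose profile over the libraries was closest was also found, among 10713 candidates. It was IER5 for SPHK1, MBOAT7 for SPHK2, TLCD2 for SPNS2, COX7A1 for SGPL1, LOC284344 for PLPP1, TRIM74 for PLPP3, GDF11 for S1PR1, LNCTAM34A for S1PR2 and CD59 for S1PR3. Within the 6 libraries apart from the pair, Pearson's r of log2(FPKM + 1) between each gene and its closest one lay between 0.886 and 0.997. These points share their libraries, and the closest of so many candidates is high by choice, so the values are a description only.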

How the data were processed

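RNA of 8 TeloHAEC samples was sequenced, 4 with estradiol and 4 controls. The authors deposited 1 table of FPKM values, with a row per gene symbol. Per the submitters' processing notes, fastp 0.20.1 and HTSeq were used. The sources used here do not give the aligner, build, annotation or strand setting. Reads were recovered from the FPKM steps, and 152348 values, all of those above 0, were whole within a relative tolerance of 1e-06. Libraries of a group differed well beyond sampling noise, with a chi-square per degree of freedom of at least 8.35, so none was counted as a repeat of another.

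The 10720 genes averaging at least 1 FPKM were compared on log2(FPKM + 1) by limma (3.58.1, R 4.3.3), with trend = TRUE. Its p-values are two-sided and Benjamini-Hochberg adjusted over those genes. Fold changes on that scale understate those of low genes. SPNS2 and S1PR2, under that filter, were compared with exact permutation tests on FPKM. The recovery of reads and the limma fit were tried on simulated data, and the outcome is not reported here. The genes changed in the limma trial had higher levels than S1PR3 and SPHK2. GC content came from the longest GENCODE release 29 transcript matched by symbol, for 95.6% of tested genes, and its trend was fitted by a spline per library.

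The genes and the pathway and marker lists were chosen with earlier results of these data known. Of the pathway list the text names the 5 highest, the 3 with the smallest p in each direction, and S1PR4, S1PR5, KLF2, NOS3, APOM and MFSD2B. S1PR1-DT, SGPP2 and TIAM1 were named after their values were seen. Intervals and floors from reads cover counting error only. Alternatives were another pseudocount, other filters, 3 scalings, no trend, limma-voom on the recovered reads, the replicate block, GC removal, the 6 libraries without the pair, and each library left out. Other steps ran in Python 3.11.15 (scipy 1.17.1, pandas 2.3.3, numpy 2.4.6), and matplotlib 3.10.9 drew the plots.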

Additional observations from a re-analysis of the deposited data

Results flagged for a closer look

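Of 45 combinations of a named gene and a group of 4 libraries, 7 had a library far from the other 3 (a gap past Dixon's 95% critical share of the range). Chance alone gives about 1 in 20 only for independent, normally distributed values. The combinations share libraries and include genes with few reads, so the 7 cannot be set against that rate. None of the 7 concerned the 9 genes of the set. Control replicate 3, one of the pair that stood apart, was the low library for CERS2 (62.3 FPKM) and ABCC1 (8.71 FPKM) and the high library for CERS6 (2.22 FPKM). Control replicate 4 was the high library for CERS5 (15.4 FPKM). Estradiol replicate 2 was the high library for APOM (6.14 FPKM, 188 reads) and for MFSD2B (0.0315 FPKM, the same 3 reads as in each other estradiol library). Estradiol replicate 3 held the only S1PR4 read (0.0162 FPKM).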

How the results depend on the processing

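Under all 19 alternatives 0 genes, 0 of the 9 genes and 0 of the other pathway genes were called, and the 8 neighbour pairs in the level order held 6 that were separate, or 7 without estradiol replicate 4, whose removal parted SPHK1 and PLPP1. The lowest adjusted p of any gene was 0.0809, without a filter, and of the 7 tested genes 0.791. The count of genes at an unadjusted p under 0.05 was 416 without the pair that stood apart, 234 with the GC trend removed, 183 without control replicate 3, 84 without estradiol replicate 4, 17 without control replicate 2 or estradiol replicate 1, 15 without control replicate 1 or estradiol replicate 3, 437 of 23471 without a filter and 4 of 7221 at a filter of 5 FPKM, against 26. The sign of SPHK1 turned with median-of-ratios size factors (0.0010), GC removal (0.0329) and without the pair (0.04), and that of PLPP3 turned without the pair (-0.0480). The cause was not tested, and no value involved was called. With 1 library left out, differences ranged from -0.10 to 0.14 for SPHK1, -0.18 to 0.0709 for SPHK2, 0.02 to 0.08 for SGPL1, -0.06 to -0.01 for PLPP1, -0.0382 to 0.0672 for PLPP3, -0.06 to -0.03 for S1PR1 and -0.17 to -0.08 for S1PR3 (log2), and from -0.18 to -0.0454 FPKM for SPNS2 and -0.0409 to -0.0152 FPKM for S1PR2. The labels do not state whether replicate numbers pair the samples. Same-numbered deviations from the group means correlated at 0.616, 0.0728, -0.478 and -0.737 for numbers 1 to 4. Estradiol replicate 4 and control replicate 3, the pair that stood apart, correlated at 0.791. That pair weighs on the values for numbers 3 and 4, so these correlations cannot decide whether samples were paired. With the replicate block 0 genes were called and 11 passed before adjustment. Without a filter limma gave SPNS2 a log2 difference of -0.09 and S1PR2 one of -0.04, and GC removal was not run for either, nor the filter of 5 FPKM for SPHK2 and S1PR3. Depth limits S1PR2, with 16 to 32 reads per library, while SPNS2 and the kinases varied beyond counting error.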
